A study of Mus musculus with 57 samples.

Results

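Ubiquitin is a small protein that cells attach to other proteins through a relay of enzymes. An activating enzyme (E1) passes it to a conjugating enzyme (E2, the Ube2 genes), and a ligase (E3) guides it from there to the target. Deubiquitinases remove it again, so that the mark can send a protein to the proteasome, move it between membranes or switch it on and off. In neurons this turnover is known for its part at the synapse, where it sets how long receptors and scaffold proteins last. The genes described here are the Ube2 genes and 3 families of deubiquitinases, the ubiquitin-specific proteases (Usp), the ubiquitin C-terminal hydrolases (Uchl) and the otubains (Otub). They were taken as every probeset with 1 annotated symbol that starts with Ube2 and a letter, Usp and a digit, Uchl or Otub, and each gene was read by its probeset of highest mean. A total of 126 probesets matched and gave 71 genes, of 12393 genes with such a symbol on the array. These were 27 Ube2, 39 Usp, 3 Uchl and 2 Otub genes. Of the 71 genes, 65 reached a deposited value of 4.5 on at least 1 array and were tested (25 Ube2, 36 Usp, 2 Uchl and 2 Otub genes). Ube2d2b, Ube2l6, Uchl4, Usp17la, Usp26 and Usp42 did not reach it. Another 8 probesets carry a matching symbol together with other symbols, among them all 4 for Ube2l3, and were left out.

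RNA was measured in the nucleus accumbens (NAc), the prefrontal cortex (PFC) and the ventral midbrain (VMB, called ventral tegmental area in the labels) of individual male C57Bl/6NCrl mice, an inbred strain, with 19 arrays in each region and 57 in all. Every mouse had chosen between 10% w/v ethanol and water in 18 h sessions, with 16 sessions in all, and tissue was taken 6 days after the last of them. No group without ethanol was measured, and each array holds a dissected block of tissue with all of its cell types. The labels do not give the intake of each mouse, so the relation of these genes to drinking was not analysed here. The title numbers of the arrays, up to 20, are called mouse numbers here. The design text gives 19 animals with an array in every region, while the titles lack number 10 in NAc, 6 in PFC and 20 in VMB, so it is not settled that a number marks the same mouse in each region. The comparisons below ask in which of the 3 regions each gene was higher or lower, and how far the mice differed.

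The regions matched their labels. The mean of 6 markers of striatal projection neurons lay between 9.85 and 10.35 on the NAc arrays and no higher than 7.54 elsewhere. The mean of 5 markers of cortical excitatory neurons was 8.38 to 8.66 in PFC and at most 6.99 elsewhere. That of 6 dopamine neuron markers was 7.82 to 8.20 in VMB and at most 6.40 elsewhere. By the test described below, 5 of these 6 were called higher in VMB than in PFC. Between NAc and VMB, 4 were called lower in NAc and 1 higher. The array titled PFC, mouse 20, is given as ventral tegmental area in its other label fields. Its cortical markers (8.52) lay within the range of the other PFC arrays and its dopamine markers (5.19) far below every VMB array, and the counts of called genes below were the same without it. The mean of 9 oligodendrocyte markers rose from PFC (7.53 to 8.87) through NAc (9.71 to 10.05) to VMB (10.66 to 10.96), with no overlap between regions. Its part in the differences below was not tested. In such tissue, fewer cells of a type and less RNA per cell cannot be told apart. On 5 arrays (NAc of mice 1, 6 and 19, PFC of mouse 3, VMB of mouse 1) all genes together stood apart from the rest of the region, and counts without these 5 are given where they differ.

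The values are robust multi-array average (RMA) expression on a log2 scale. The array medians of the deposited values lay apart by region, at 6.26 to 6.32 in NAc, 5.66 to 5.70 in PFC and 5.79 to 5.86 in VMB, and the sources used here do not say whether the regions were normalized together. Over the tested probesets the median gap was 0.72 between NAc and PFC, 0.55 between NAc and VMB and 0.18 between VMB and PFC. All values below are on a joint log2 scale, after quantile normalization over the 57 arrays together, on which these medians were 0.03, 0.02 and 0.02. A gene was called higher or lower where limma's test against a minimum difference of 0.5 (log2) gave a Benjamini-Hochberg adjusted p below 0.01 over all 19815 tested probesets. All adjusted p-values below are from this test.

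Promoter sequences are shown for 4 deubiquitinases that each stood apart from both other regions in a different way: Usp29 (low in PFC), Usp8 (high in VMB), Usp3 (high in NAc) and Usp38 (low in VMB). They come from RefSeq, build GRCm38.p6, run from 250 bases before to 50 bases after the annotated start, and are printed 5′ to 3′ on the strand of the gene. Usp29 lies at chr7:6730333-6730632 (plus strand), Usp8 at chr2:126707078-126707377 (plus), Usp3 at chr9:66593066-66593365 (minus) and Usp38 at chr8:81014857-81015156 (minus). Capitals mark matches on either strand to the letters GGGCGG of the GC box, the letters CCAAT of the box of that name, the letters CCGGAAG of an ETS motif, the letters TGACGTCA of a cAMP response element or the letters CACGTG of an E-box. No overlap between motifs was removed.
Usp29: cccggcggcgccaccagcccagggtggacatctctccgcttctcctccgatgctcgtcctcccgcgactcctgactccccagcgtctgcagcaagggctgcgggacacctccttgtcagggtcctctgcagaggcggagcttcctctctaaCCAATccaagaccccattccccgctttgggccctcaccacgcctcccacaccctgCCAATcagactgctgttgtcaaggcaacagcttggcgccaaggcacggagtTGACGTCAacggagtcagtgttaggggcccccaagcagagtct
Usp8: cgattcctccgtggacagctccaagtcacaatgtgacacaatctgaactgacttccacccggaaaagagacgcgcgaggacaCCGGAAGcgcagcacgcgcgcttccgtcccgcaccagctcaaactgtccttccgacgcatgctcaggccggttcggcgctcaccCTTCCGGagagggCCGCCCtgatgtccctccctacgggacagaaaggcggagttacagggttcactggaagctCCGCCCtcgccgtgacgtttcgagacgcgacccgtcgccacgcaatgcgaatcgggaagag
Usp3: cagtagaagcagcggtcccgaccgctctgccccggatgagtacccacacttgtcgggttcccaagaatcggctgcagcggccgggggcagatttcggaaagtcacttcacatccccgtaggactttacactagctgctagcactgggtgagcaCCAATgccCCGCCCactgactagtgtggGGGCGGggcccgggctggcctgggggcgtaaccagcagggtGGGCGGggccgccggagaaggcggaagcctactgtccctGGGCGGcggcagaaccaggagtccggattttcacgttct
Usp38: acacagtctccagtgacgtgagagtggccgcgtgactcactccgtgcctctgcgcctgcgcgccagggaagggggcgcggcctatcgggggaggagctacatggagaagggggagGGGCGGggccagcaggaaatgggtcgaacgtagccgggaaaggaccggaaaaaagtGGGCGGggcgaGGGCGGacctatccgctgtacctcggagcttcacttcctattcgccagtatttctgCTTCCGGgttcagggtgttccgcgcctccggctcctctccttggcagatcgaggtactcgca

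Usp29 held 1 cAMP response element and 2 CCAAT boxes and no GC box. Usp8 held 2 GC boxes and 2 ETS motifs, Usp38 held 3 GC boxes and 1 ETS motif, and Usp3 held 4 GC boxes and 1 CCAAT box. None of these 4 windows held the E-box letters. The table has 64 windows for 54 of the 71 genes. A GC box was in 43 of these windows (67.2%), against 57.8% of 11630 windows of all tested genes and 35.7% of all 32851 windows. The ETS motif was in 15 (23.4%, against 14.7% and 8.86%), the cAMP response element in 3 (4.69%, against 2.63% and 1.79%), the CCAAT box in 19 (29.7%, against 36.8% and 37.4%) and the E-box in 3 (4.69%, against 9.34% and 7.15%). These matches describe the letters of the windows and were not tested.

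Most of these genes were called in no comparison of regions, and between 23 and 32 of the 65 lay within 0.25 of no difference in each. Between NAc and PFC, 4 of the 65 tested genes were called higher in NAc and 7 lower, where 7.77% and 6.40% of all 11336 genes with a tested probeset were called. Between VMB and PFC, 2 were higher in VMB (background 10.4%) and 7 lower (background 9.30%). Between NAc and VMB, 8 were higher in NAc (background 9.69%) and 7 lower (background 10.1%). In at least 1 comparison 25 of the 65 were called (38.5%), against 32.5% of all genes, a share near that of all genes. The comparisons share arrays and are not independent of each other. The split depends on the scale: on the deposited values, with the offset between regions left in, 29 were higher and 1 lower in NAc than in PFC (background 60.1% and 1.36%), 33 and 0 in NAc against VMB (41.7% and 2.81%), and 3 and 3 in VMB against PFC (15.1% and 7.43%). Of the 65 differences, 32 for NAc minus PFC, 4 for VMB minus PFC and 25 for NAc minus VMB have the opposite sign on the deposited values, among them 1 that was called here (Ube2d3). With each array centred on its median, 4 were higher and 6 lower in NAc against PFC (background 9.37% and 5.64%). The counts were 3 and 7 in VMB against PFC (11.1% and 9.31%), and 8 and 5 in NAc against VMB (10.5% and 9.08%). Against a minimum difference of 0, 17 genes were higher and 33 lower in NAc against PFC (background 41.5% and 31.7%), 21 and 31 in VMB against PFC (40% and 34.4%), and 30 and 27 in NAc against VMB (39.3% and 35.6%). Against a minimum difference of 1 the counts were 0 and 1 (background 1.74% and 1.61%), 1 and 2 (3.46% and 3.48%), and 1 and 1 (3.17% and 2.88%). With the mean over the probesets of each gene, 3 were higher and 7 lower in NAc against PFC (background 6.44% and 6.52%), 2 and 7 in VMB against PFC (9.52% and 9.01%), and 5 and 5 in NAc against VMB (8.48% and 9.73%). Without the 5 arrays that stood apart the counts were 5 and 6 (7.39% and 6.33%), 2 and 7 (10.6% and 9.59%), and 8 and 7 (9.61% and 10.1%).

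**Figure D1:**
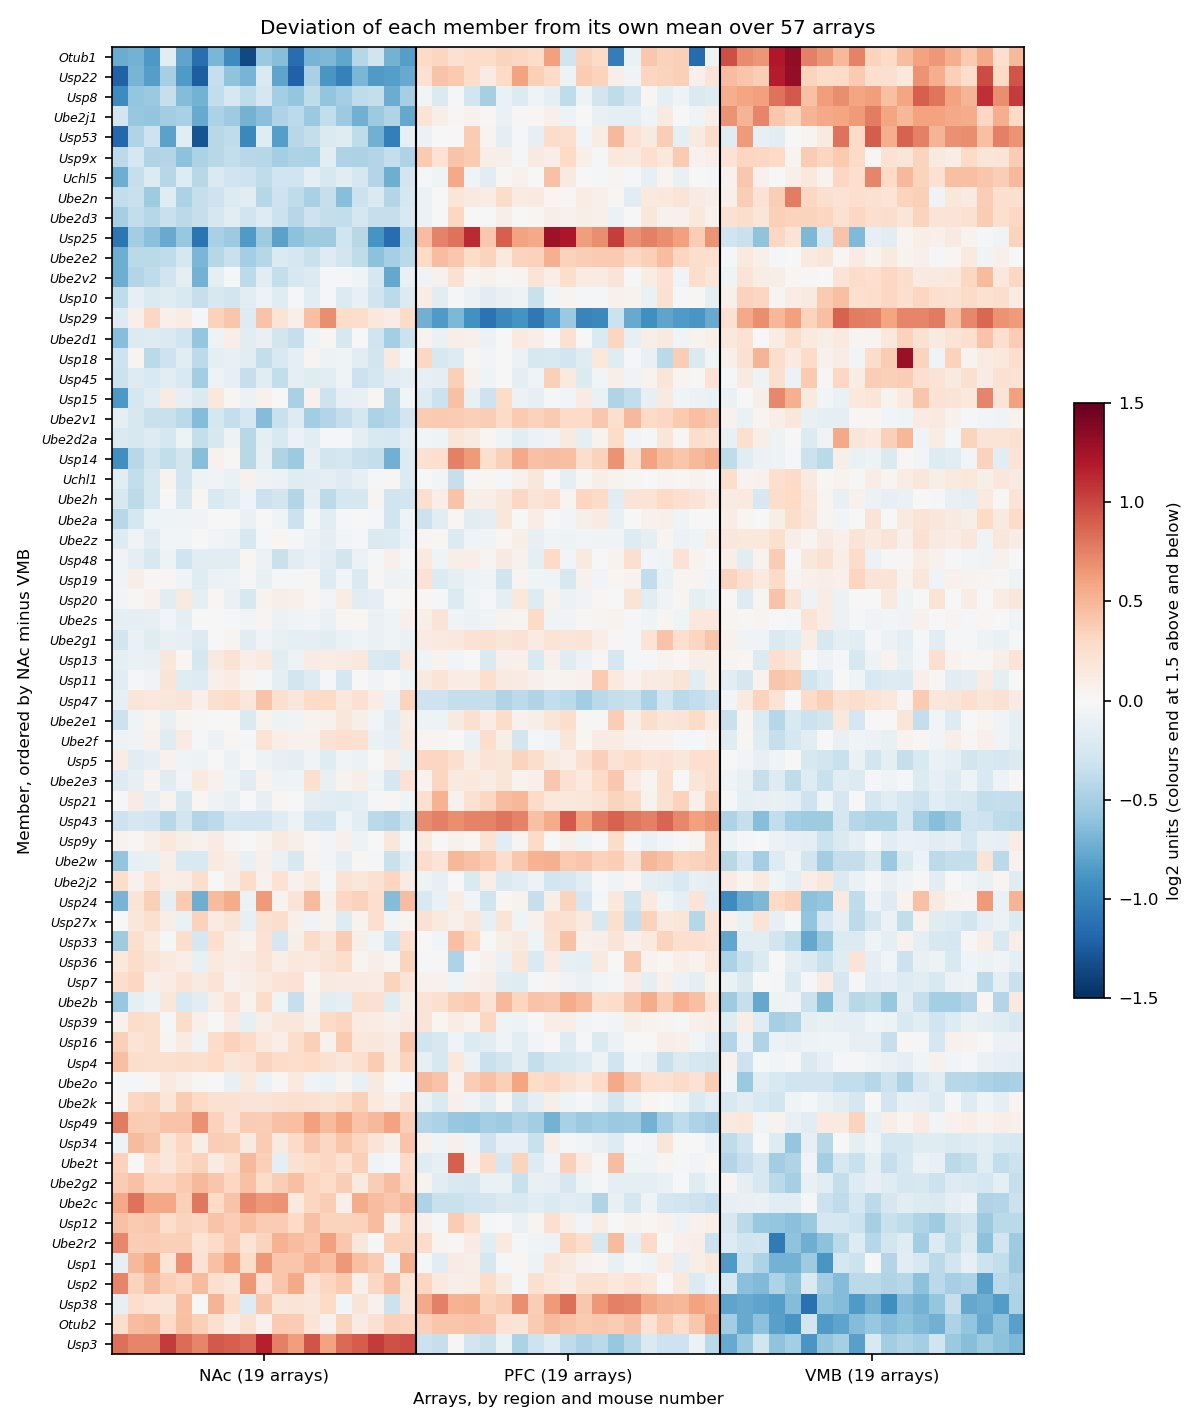
Deviation of each of the 65 tested genes from its own mean over the 57 arrays (log2, joint scale), 1 row per gene and 1 column per array, with arrays grouped by region. Rows run from Otub1 (NAc minus VMB -1.38) at the top to Usp3 (1.42) at the bottom, and most rows in between are pale.

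The differences of the conjugating enzymes spanned a narrower range than those of the proteases. Of 25 tested Ube2 genes, 1 was higher and 2 lower in NAc than in PFC, 0 higher and 3 lower in VMB than in PFC, and 2 higher and 2 lower in NAc than in VMB. Over all genes the shares called higher and lower were 7.77% and 6.40%, 10.4% and 9.30%, and 9.69% and 10.1%. The median difference of the Ube2 genes was -0.23 for NAc minus PFC, beside 0.06 over all genes, -0.10 for VMB minus PFC beside 0.04, and -0.03 for NAc minus VMB beside 0.02. Their largest difference in size was -1.09. Of 36 tested Usp genes, 3 were higher and 4 lower, 2 higher and 3 lower, and 5 higher and 4 lower in the same comparisons. Their median differences were -8.25e-05, -0.08 and 0.13, and single genes reached from -1.42 to 1.46. Whether the families differ in this was not tested.

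**Figure D2:**
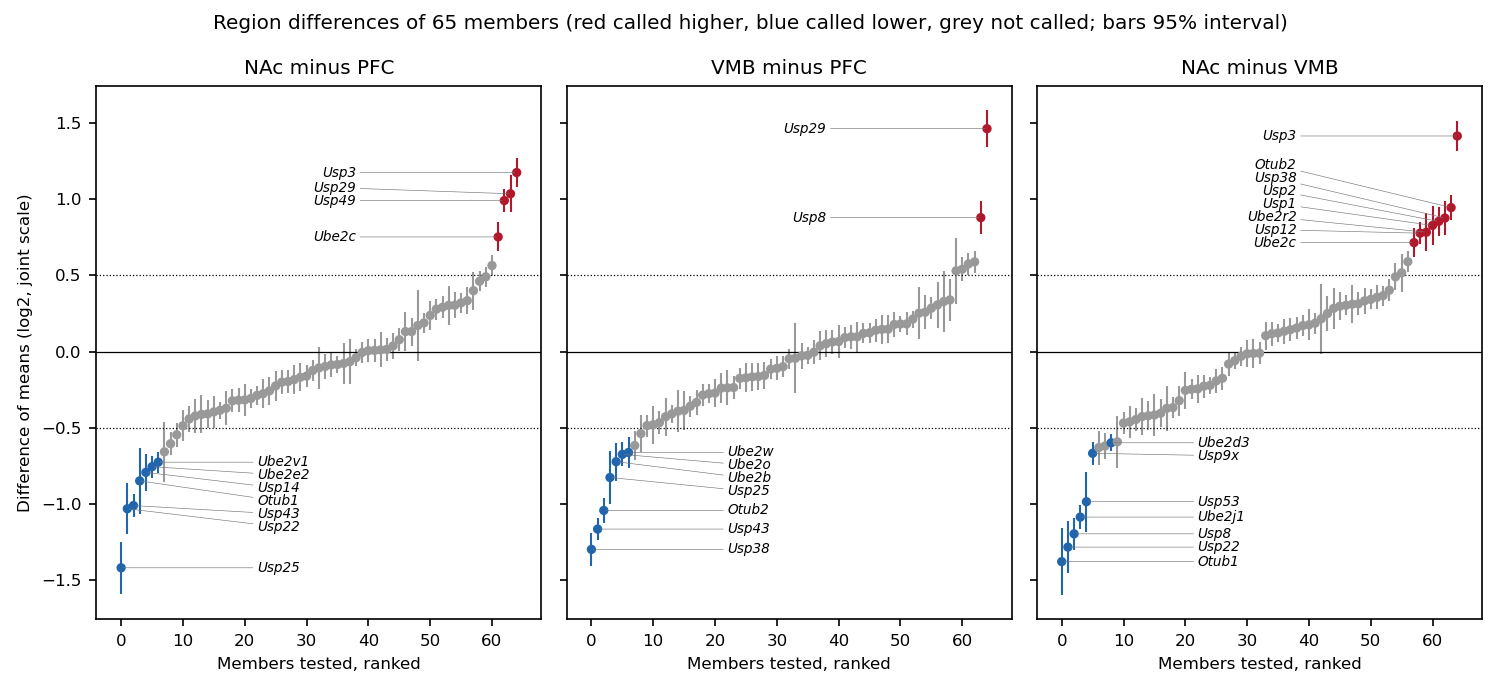
Difference of region means (log2, joint scale) for each of the 65 tested genes, ranked, with its 95% interval, in 3 panels for the 3 comparisons. Dotted lines mark the minimum difference of 0.5, and named points are the called genes, from Usp25 (-1.42) to Usp29 (1.46).

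Usp3 was the gene most clearly raised in NAc. This protease removes ubiquitin from histones and acts in the response to DNA damage. Its arrays ran from 6.72 to 7.29 in NAc (median 6.97), from 5.56 to 6.13 in PFC (median 5.79) and from 5.25 to 5.89 in VMB (median 5.56). Every NAc array lay above every array of the other regions, while PFC and VMB overlapped. Its mean in NAc was 1.18 above PFC (SE 0.050, 2.26-fold, adjusted p = 1.57e-18) and 1.42 above VMB (2.67-fold, adjusted p = 7.52e-25). A further Usp3 probeset was also called higher in NAc in both comparisons, by 0.82 and 0.88.

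Ube2c, the conjugating enzyme that works with the anaphase-promoting complex in dividing cells, was also highest in NAc, at a level near the lower end of the scale. It ran from 4.39 to 5.12 in NAc (median 4.79), 3.84 to 4.23 in PFC (median 4.04) and 3.86 to 4.29 in VMB (median 4.11). The NAc arrays did not overlap with the others. The mean in NAc was 0.75 above PFC and 0.72 above VMB, the latter 0.64 with arrays centred on their medians. Ube2c, like Ube2t and Usp9y, passed the filter on low values through its NAc arrays alone, so these values are a description and its calls, which stand in the counts, are not support for a difference. Of its usual partners, Ube2s, which extends the chains that Ube2c starts, was called in no comparison (medians of 9.95, 10.04 and 10.00 in NAc, PFC and VMB). Cdc20, an activator of the complex, had means of 5.83, 4.79 and 5.17 and was called higher in NAc than in both. Other listed genes of the complex did not share this: Anapc11 was called lower in NAc than in VMB (-0.64, adjusted p = 0.00226). Anapc2 and Fzr1 were called in no comparison.

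Usp49, another protease of histones, ran from 6.14 to 6.71 in NAc, 5.21 to 5.54 in PFC and 5.77 to 6.27 in VMB. The NAc and PFC arrays did not overlap, and the means differed by 0.99 (SE 0.038, adjusted p = 8.20e-18). VMB lay 0.59 above PFC, just outside the threshold (adjusted p = 0.0504), and past it with arrays centred on their medians or weighted.

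Otub1 and Usp22 were lower in NAc than in both other regions. Otub1 cleaves ubiquitin chains and also holds conjugating enzymes such as Ube2n inactive, and Usp22 is the deubiquitinase of the SAGA transcription complex. Usp22 ran from 6.23 to 7.26 in NAc (median 6.68), 7.40 to 8.08 in PFC (median 7.76) and 7.62 to 8.79 in VMB (median 7.84). No NAc array reached the lowest array of PFC or VMB, which overlapped with each other. The mean in NAc was lower by 1.03 than in PFC (2.05-fold, adjusted p = 3.58e-07) and by 1.29 than in VMB (2.44-fold, adjusted p = 4.41e-12).

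Otub1 ran from 6.44 to 7.62 in NAc (median 7.08), 6.64 to 8.41 in PFC (median 8.07) and 8.05 to 9.13 in VMB (median 8.40). NAc and VMB did not overlap, and their means differed by -1.38 (SE 0.111, adjusted p = 4.18e-10). In PFC, 2 arrays lay far below the rest, mouse 19 at 6.64 and mouse 14 at 6.75, with the other 17 from 7.50 to 8.41. NAc and PFC overlapped even without these 2, as the NAc array of mouse 4 reached 7.62. The difference of NAc from PFC was -0.85 (adjusted p = 0.00879). This call was lost without the arrays that stood apart (-0.82, adjusted p = 0.0325), with only the 2 regions in the fit (-0.85, adjusted p = 0.0165) and with arrays centred on their medians (-0.83, adjusted p = 0.0114), while the difference stayed about as large. The second Otub1 probeset gave 0.30 for NAc minus PFC and -0.075 for NAc minus VMB, neither called. On that probeset the PFC array of mouse 19 was again the lowest (6.77), while that of mouse 14 (7.48) lay within the range of the others (7.14 to 7.84). The lower level of Otub1 in NAc thus rests on 1 of its 2 probesets.

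Usp25 and Usp43 were highest in PFC, both at low levels. Usp25, a protease of immune signalling and of misfolded proteins, ran from 3.51 to 4.36 in NAc (median 4.09), 5.03 to 5.92 in PFC (median 5.36) and 3.99 to 5.09 in VMB (median 4.64). NAc and PFC did not overlap, while the highest VMB arrays reached the lowest PFC arrays. The mean differed by -1.42 for NAc minus PFC (adjusted p = 4.39e-14) and by -0.83 for VMB minus PFC (adjusted p = 0.00118, and -0.70 with adjusted p = 0.0155 with arrays centred on their medians). All NAc arrays lie below 4.5 on the joint scale, whether they stand above background was not tested, and no fold is given. Usp43 ran from 3.78 to 4.16 in NAc, 4.66 to 5.14 in PFC and 3.58 to 3.97 in VMB, and PFC stood clear of both. The means differed by -1.01 (NAc minus PFC) and -1.17 (VMB minus PFC, adjusted p = 5.70e-24). All NAc and VMB arrays of Usp43 lie below 4.5 on the joint scale, and no VMB array reached 4.5 on the deposited values. Whether they stand above background was not tested. Its second probeset gave 0.31 and -0.17 and was called in neither.

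Usp29 was the only tested gene of the 65 called lower in PFC than in both other regions. It is an imprinted gene next to Peg3, expressed from the paternal copy. Its arrays ran from 6.71 to 7.60 in NAc (median 7.10), 5.80 to 6.58 in PFC (median 6.05) and 7.13 to 7.79 in VMB (median 7.58). PFC stood clear of both regions, and NAc and VMB overlapped. VMB was 1.46 above PFC (SE 0.062, 2.76-fold, adjusted p = 1.57e-21) and NAc 1.04 above PFC (2.05-fold, adjusted p = 3.61e-11). A second probeset, at means of 3.98 or less in all regions, showed no called difference (0.16 for NAc minus PFC and -0.086 for VMB minus PFC). The mean of both probesets was not called for NAc minus PFC (0.60, adjusted p = 0.0326). The Usp29 promoter printed above was the only one of the 4 with the letters of the cAMP response element.

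Usp8 was the 1 gene called higher in VMB than in both other regions. This protease acts on endosomes, where it spares receptors from lysosomal breakdown. It ran from 6.95 to 7.66 in NAc (median 7.39), 7.39 to 7.92 in PFC (median 7.71) and 8.34 to 8.99 in VMB (median 8.52). VMB stood clear of both, at 1.20 above NAc (2.29-fold, adjusted p = 1.27e-17) and 0.88 above PFC (1.84-fold, adjusted p = 1.45e-08). The gene has no further tested probeset.

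Otub2 and Usp38 were lowest in VMB. Otub2, the other otubain, ran from 7.01 to 7.44 in NAc, 7.14 to 7.56 in PFC and 6.06 to 6.67 in VMB, with medians of 7.23, 7.35 and 6.29. VMB stood clear of both and was lower than PFC by 1.04 (adjusted p = 7.34e-18), while NAc was 0.95 above VMB (adjusted p = 2.43e-14). The second Otub2 probeset gave -0.36 and 0.18, not called. The 2 otubains thus had opposite orders between NAc and VMB on the probesets used. Usp38 ran from 5.24 to 6.07 in NAc (median 5.76), 5.90 to 6.39 in PFC (median 6.14) and 4.44 to 5.22 in VMB (median 4.83). No VMB array reached the others, and VMB was lower than PFC by 1.30 (2.46-fold, adjusted p = 1.22e-19) and lower than NAc by 0.88 (NAc minus VMB 0.88, adjusted p = 4.12e-08).

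**Figure D3:**
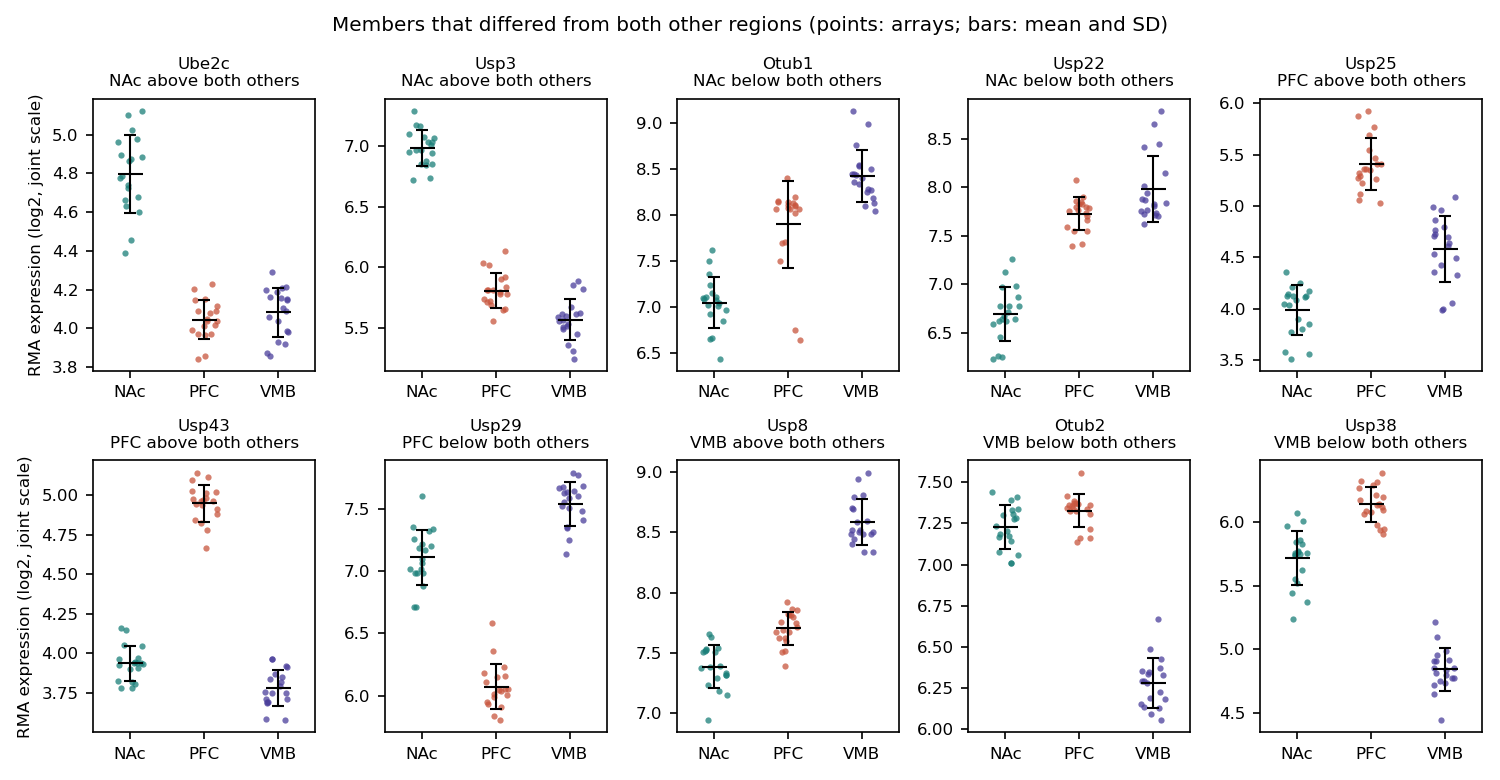
RMA expression (log2, joint scale) of the 10 genes called against both other regions, 1 panel per gene with its own axis, 1 point per array and a bar for the mean and SD of 19 arrays. In Otub1, 2 PFC points (6.64 and 6.75) lie far below the other 17.

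The shares of genes in these patterns lay near or below those over all genes. NAc stood above both regions for 2 of 65 genes (3.08%, against 2.81% of all genes), of which Ube2c passed the filter through NAc alone, and below both for 2 (against 2.17%). PFC stood above both for 2 (against 2.81%) and below both for 1 (1.54%, against 3.04%). VMB stood above both for 1 (against 5.57%) and below both for 2 (against 4.75%).

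Among conjugating enzymes of the remaining calls, Ube2j1 had the largest difference. It anchors in the endoplasmic reticulum and serves the breakdown of misfolded proteins there. It ran from 8.34 to 8.82 in NAc, 8.96 to 9.31 in PFC and 9.41 to 9.87 in VMB, so that no 2 regions overlapped. NAc lay 1.09 below VMB (NAc minus VMB -1.09, 2.13-fold, adjusted p = 1.93e-20), and a second probeset, at lower levels, gave -1.06 and was called too. The steps on either side of PFC (-0.55 and 0.54) were not past the threshold by the probeset used. By the second probeset NAc was called lower than PFC (-0.82, adjusted p = 0.00285), as it was by the mean of both (-0.68, adjusted p = 0.000371). The other conjugating enzymes of this compartment, Ube2g1, Ube2g2 and Ube2j2, were called in none of the comparisons, and Ube2g2 lay 0.59 higher in NAc than in VMB (adjusted p = 0.0251).

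Ube2v1, Ube2v2 and Ube2n build ubiquitin chains that signal rather than mark for breakdown, with the Ube2v proteins as inactive partners of Ube2n. Ube2v1 ran from 9.14 to 9.65 in NAc, 10.03 to 10.27 in PFC and 9.64 to 9.96 in VMB. It was lower in NAc than in PFC by 0.73 (adjusted p = 1.10e-07). Ube2n had means of 8.75, 9.19 and 9.37 in NAc, PFC and VMB, and its NAc minus VMB difference of -0.62 missed the threshold (adjusted p = 0.0176), although the arrays of the 2 regions did not overlap. Ube2v2 had medians of 8.34, 8.68 and 8.73 and was not called.

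Of the Ube2d and Ube2e enzymes, which serve a wide range of ligases, Ube2e2 was 0.76 lower in NAc than in PFC (means 8.18 and 8.94, adjusted p = 1.54e-08) and Ube2d3 0.60 lower in NAc than in VMB (means 9.44 and 10.04, adjusted p = 0.00241). The regions did not overlap for either pair. All 6 further probesets of Ube2d3 gave a difference of the same sign, from -0.64 to -0.31, none called. The Ube2d3 call was lost with arrays centred on their medians (-0.44, adjusted p = 1), with array weights (-0.58, adjusted p = 0.0122) and with the mean over probesets (-0.49, adjusted p = 1), and on the deposited values the difference turned to 0.066. Ube2d1 and Ube2d2a were called in no comparison.

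Of the pair Ube2a and Ube2b, which place ubiquitin on histones and in DNA repair, Ube2b was 0.72 lower in VMB than in PFC (8.87 to 9.77 against 9.84 to 10.19, adjusted p = 0.00223), with -0.14 on a second probeset. Ube2a was called in no comparison, with medians of 8.61, 8.67 and 8.80. Ube2o, which acts as conjugating enzyme and ligase in 1 protein, was 0.68 lower in VMB than in PFC (6.76 to 7.28 against 7.39 to 7.91, adjusted p = 0.000143). Ube2w, which attaches ubiquitin to the N terminus of proteins, was 0.66 lower in VMB than in PFC (adjusted p = 0.0072), with 0.17 on a second probeset. Ube2r2, an enzyme of cullin ligases, was 0.78 higher in NAc than in VMB (7.75 to 8.49 against 6.70 to 7.59, adjusted p = 0.000136). Ube2h and Ube2k were called in no comparison.

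Among proteases, those that sit on the proteasome were Usp14 and Uchl5. Usp14, whose loss causes the ataxia mouse, ran from 8.15 to 9.14 in NAc, 9.30 to 9.82 in PFC and 8.67 to 9.42 in VMB. NAc and PFC did not overlap and differed by -0.79 (adjusted p = 8.01e-05). One of 2 further probesets was also called lower (-0.75) and the other gave -0.41. Uchl5 had means of 8.54, 8.91 and 9.17 and was not called (NAc minus VMB -0.63, adjusted p = 0.0579).

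Usp2, a protease of the circadian clock, ran from 8.49 to 9.15 in NAc (median 8.75), 8.22 to 8.74 in PFC (median 8.58) and 7.61 to 8.21 in VMB (median 7.96). All VMB arrays lay below all NAc and PFC arrays. NAc was 0.85 above VMB (SE 0.048, 1.81-fold, adjusted p = 2.58e-09), and a second probeset gave 1.76, also called. VMB minus PFC was -0.62 (adjusted p = 0.041), and the mean of both probesets was past the threshold there (-1.05).

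Usp12, which works with a WD-repeat partner on glutamate receptors, was 0.78 higher in NAc than in VMB (7.60 to 7.97 against 6.88 to 7.27, adjusted p = 1.65e-09). Its 2 further probesets gave the opposite sign (-0.75 and -0.27, neither called), and the mean over its 3 probesets gave -0.081. Usp1, which acts in DNA repair with the same partner, was 0.83 higher in NAc than in VMB (adjusted p = 1.20e-05), with 0.52 and -0.10 on further probesets. Usp9x, a large X-linked protease of neuronal development, was 0.67 lower in NAc than in VMB (7.71 to 8.15 against 8.35 to 8.72, adjusted p = 0.00018). All 6 further probesets of Usp9x had the same sign, from -1.13 to -0.43, and 3 of them were called. With arrays centred on their medians the difference of the probeset used was -0.57 (adjusted p = 0.212). Usp53, a protein of cell junctions needed for hearing, was 0.99 lower in NAc than in VMB (adjusted p = 3.48e-05), with overlap (4.21 to 5.39 against 5.33 to 6.42).

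In all, the called genes with further tested probesets gave 32 gene-by-probeset readings, of which 25 had the same sign, 8 were called in the same direction and 0 in the opposite direction. The other 7 readings had the opposite sign without a call. Where the probeset used was not called, 16 of 127 readings by a further probeset were, 3 higher and 13 lower, in 12 genes (Ube2d2a, Ube2d3, Ube2j1, Ube2k, Ube2v2, Usp1, Usp12, Usp19, Usp2, Usp36, Usp7 and Usp9x). In 5 of the 16 the sign was opposite to that of the probeset used. Usp19, for instance, was higher in NAc than in PFC (0.74) and VMB (0.77) by such a probeset, and Usp12 (-1.25) and Usp1 (-0.84) were lower in NAc than in PFC.

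**Figure D4:**
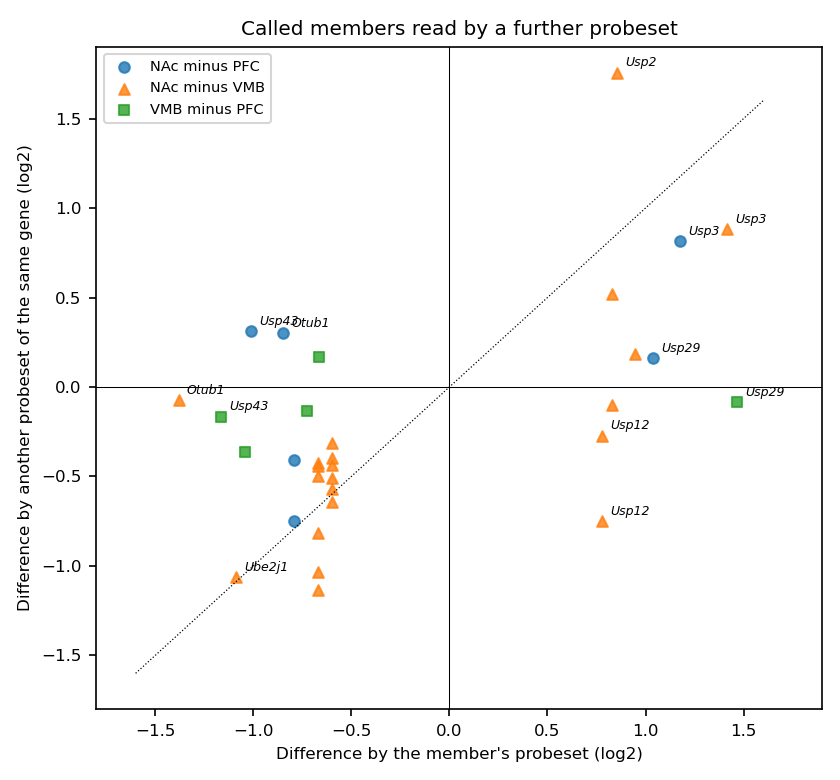
Region difference (log2) by the probeset used for a called gene (x axis) against that by a further probeset of the gene (y axis), 32 points over 3 comparisons, with a dotted line of equality. Usp3 and Ube2j1 lie on the same side of 0 by both readings and Usp2 is larger by the further one (1.76). Points of opposite sign belong to Otub1, Usp43, Usp12 and Usp29, and to Usp1 and Ube2w, which are not named in the plot.

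Several well-known genes were called in no comparison by the probeset used, which does not show that they did not differ. Uchl1, the abundant hydrolase of neurons, ran from 10.85 to 11.29 in NAc, 10.87 to 11.38 in PFC and 11.23 to 11.51 in VMB, with differences of -0.12 (interval -0.19 to -0.06) for NAc minus PFC, 0.12 for VMB minus PFC and -0.25 for NAc minus VMB. Usp7, which controls the p53 pathway, had medians of 9.06, 8.89 and 8.78 in NAc, PFC and VMB, with a difference of 0.30 for NAc minus VMB, and a further probeset was called there (0.85). Usp18, which removes the interferon-induced modifier Isg15, stayed near the lower end of the scale in all regions (medians 3.97, 4.01 and 4.36), except for the VMB array of mouse 12 at 5.42, above the next highest of 4.64. Ube2t, Usp18 and Usp9y had means below 4.5 in all 3 regions.

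Without a test, the arrays of 2 regions did not overlap for 6 genes with NAc above PFC and 10 with NAc below PFC (9.23% and 15.4%, against 13.4% and 9.10% of all genes). The counts were 5 and 11 for VMB above and below PFC (7.69% and 16.9%, against 14.5% and 11.9%), and 9 and 10 for NAc above and below VMB (13.8% and 15.4%, against 12.3% and 12.4%). On the deposited values they were 30 and 1 for NAc and PFC (against 64.7% and 1.26% of all genes), 5 and 9 for VMB and PFC (20.9% and 9.16%), and 30 and 1 for NAc and VMB (43.8% and 2.80%). Usp47, a protease of DNA repair, was among those not called: it was clear of PFC in both NAc (0.57 higher, adjusted p = 0.193) and VMB (0.58 higher, adjusted p = 0.0879).

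The rest of the pathway was read from fixed lists. Of 12 genes for ubiquitin itself and the activating enzymes, 4 were tested and 0 called in any comparison, at median differences of 0.13, -0.05 and 0.19 for NAc minus PFC, VMB minus PFC and NAc minus VMB. A further 13 tested deubiquitinases have symbols that the rule does not match, among them Bap1, itself a ubiquitin C-terminal hydrolase. Of these 13, 2 were higher and 0 lower in NAc than in PFC, and 2 higher and 0 lower in VMB than in PFC. Between NAc and VMB, 2 were higher and 3 lower in NAc. Josd2, of the Josephin family, had means of 7.05 in NAc, 6.40 in PFC and 7.92 in VMB and was called in all 3 comparisons. Of 51 tested ligase genes, 1 was higher and 4 lower in NAc than in PFC, 2 higher and 6 lower in VMB than in PFC, and 5 higher and 7 lower in NAc than in VMB. Shares over all genes, higher and lower, were 7.77% and 6.40%, 10.4% and 9.30%, and 9.69% and 10.1% in these comparisons, and no difference from them was tested. Nedd4l, a ligase of ion channels, had means of 8.71, 8.47 and 7.24, and Fbxw7, a substrate receptor of cullin ligases, of 9.89, 10.19 and 8.75. Both were called lower in VMB than in the other regions. Wwp1 went the other way and was called higher in VMB than in both (means of 7.71, 7.45 and 8.35 in NAc, PFC and VMB). Cbl was called in all 3 comparisons, with means of 5.06, 7.84 and 6.07 in the same order.

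Mice of the same region differed little in most of these genes. The median SD between mice over the 65 genes was 0.131 in NAc, 0.122 in PFC and 0.134 in VMB, beside 0.151, 0.128 and 0.156 over all genes. The widest spreads in NAc were those of Usp24 (SD 0.42), Usp53 (0.37), Otub1 (0.28) and Usp22 (0.28). In PFC they were those of Otub1 (0.47), Ube2t (0.28), Usp25 (0.26) and Usp15 (0.22), and in VMB those of Usp24 (0.46), Usp53 (0.37), Usp22 (0.34) and Usp25 (0.33).

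Usp24, a large protease related to Usp9x, was called in no region comparison. In NAc it ran from 4.90 to 6.27 with a median of 5.89, and mice 6, 1 and 19 were the lowest (4.90, 4.94 and 4.99), the next being mouse 4 at 5.50. In VMB it ran from 4.70 to 6.28 with a median of 5.68, and mouse 1 was the lowest. In PFC the range was 5.29 to 5.97. Usp53 in NAc was lowest in the same mice 6, 1 and 19 (4.21, 4.33 and 4.49), and Usp25 likewise (3.56, 3.57 and 3.51). These are the 3 NAc arrays on which all genes together stood apart. Usp2 ran the other way in NAc: the array of mouse 1 was its highest (9.15).

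The main axis on which arrays of a region varied, the first principal component over all genes, held 47.3% of the variance in NAc, 17.04% in PFC and 28.6% in VMB. In NAc, 16 of the 65 genes (24.6%) had a correlation with it above 0.7 in size, against 30.7% of all genes. In PFC the shares were 6.15% and 3.83%, and in VMB 12.3% and 15.02%. These shares are a description, since the axis is computed from the same arrays. What the axis reflects was not tested, and the labels give no scan date or RNA quality per array.

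**Figure D5:**
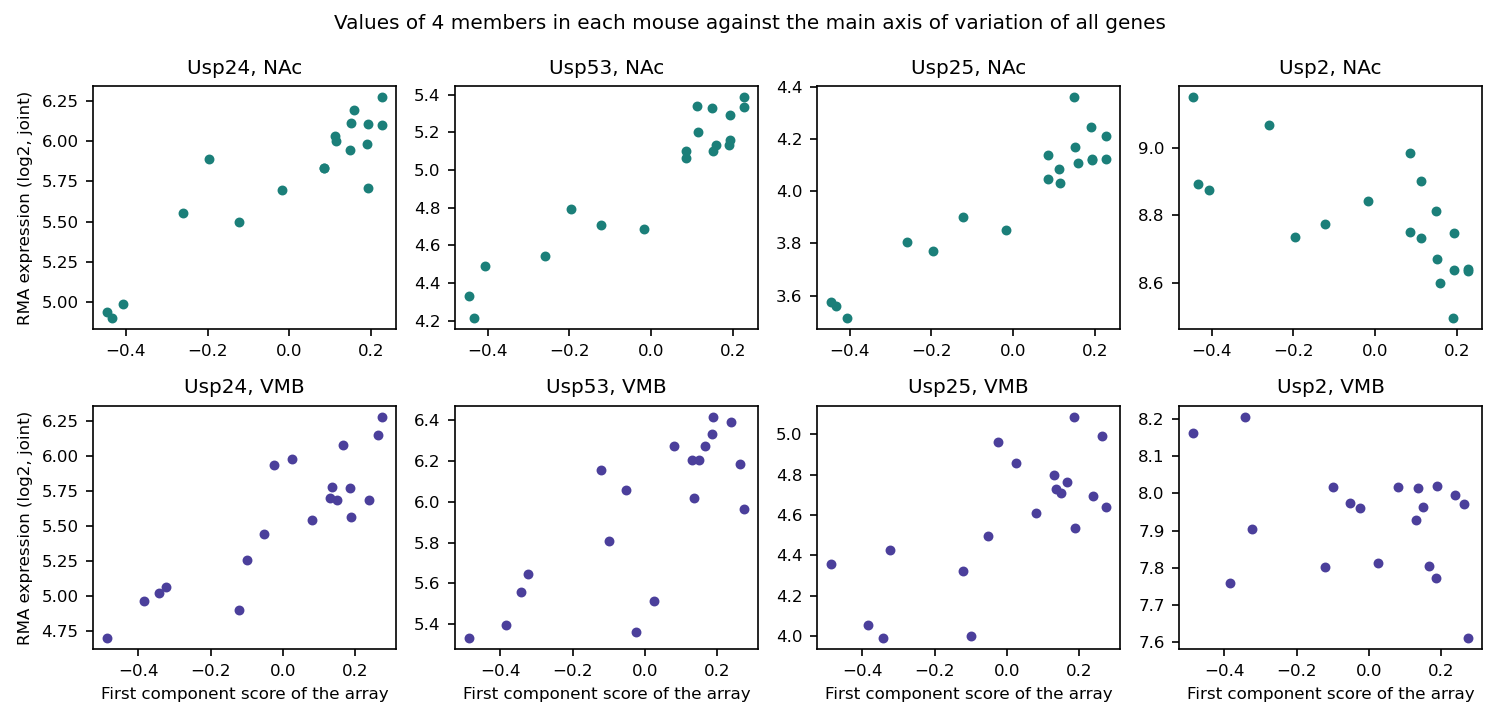
RMA expression (log2, joint scale) of Usp24, Usp53, Usp25 and Usp2 on each NAc array (top) and VMB array (bottom) against the score of that array on the first component of its region over all genes, which has no unit. The 3 NAc arrays with scores below -0.4 are the lowest of Usp24, Usp53 and Usp25.

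Levels on arrays of the same number were compared between regions to ask whether a mouse with more of a transcript in a region also had more in the others. The comparison rests on the reading of the numbers as mice, which is not settled, so a lack of correlation says nothing firm about the same mouse. With 18 shared mouse numbers for each pair of regions, 195 correlations were computed for the 65 genes. None passed an adjusted p of 0.05 in the permutation test (two-sided, 100000 permutations, Benjamini-Hochberg over the 195, smallest adjusted p = 0.947). With no adjustment 5 of 195 fell below 0.05 by Pearson's r and 7 by Spearman's rho. The median r was 0.089 between NAc and PFC, 0.12 between NAc and VMB and -0.013 between PFC and VMB, beside 0.063, 0.10 and 0.024 over all genes. The smallest p was that of Ube2v2 between PFC and VMB (r = 0.62, permutation p = 0.0059, rho = 0.59, permutation p = 0.0111, r = 0.55 with the 2 mice of most extreme PFC level left out). Ube2g1 between NAc and VMB followed (r = -0.53, permutation p = 0.0228, rho = -0.33, permutation p = 0.185, r = -0.42 with such mice left out). The third was Usp2 between NAc and VMB (r = 0.52, permutation p = 0.0255, rho = 0.38, permutation p = 0.122, r = 0.35 with such mice left out), and its r was 0.45 between NAc and PFC (permutation p = 0.0604, rho = 0.50, permutation p = 0.0374, r = 0.23 with such mice left out). Ube2g1 had the opposite sign between NAc and PFC (r = 0.42, permutation p = 0.0845, rho = 0.62, permutation p = 0.0080, r = 0.48 with such mice left out). That was the smallest permutation p by rho, and the smallest adjusted p by rho was 0.815. For all 3 of these genes the adjusted p by Pearson's r was 0.947.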

How the data were processed

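Total RNA from each mouse and region was hybridised to 1 Affymetrix mouse expression array, and 57 arrays were used here (19 per region). The deposited values are log2 expression, which the authors computed by RMA. GCOS and RMA are listed, without a version, in the submitters' processing notes, and no source used here says whether regions were normalized together, while array medians differ by region. The number of arrays limits the precision. Nothing says which mice shared a litter or a processing day, so p-values measure the spread between these arrays.

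Probesets were named from the platform annotation (20380 with 1 symbol, 691 with several, 1555 with none). The gene families, lists and rule for named genes (up to 6 called genes per direction and comparison, a fixed list, the 4 widest spreads per region, the 3 smallest correlation p) were chosen with earlier results of these data known. Genes named for other reasons, such as Usp47, Josd2, Nedd4l, Fbxw7, Wwp1, Cbl, Cdc20, Anapc11 and Ube2w, were chosen after their values were seen.

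The deposited values were quantile-normalized over all arrays together, probesets at 4.5 or more on at least 1 array were kept (19815 of 22626), and region means were fitted with limma 3.58.1 in R 4.3.3 (treat, minimum difference 0.5). In data simulated with independent normal noise over 19815 probesets, 100 were changed by 0.75, 100 by 1 and 19615 not at all. Between NAc and PFC, 65% of those changed by 0.75 and 99% of those changed by 1 were called. In the real data a larger share was called and genes varied together, so these rates need not apply to them. Correlations used numpy 2.4.6. Alternatives were the deposited scale, median centring, other filters and minimum differences, the mouse number as a replicate block, array weights, fits of 2 regions, the mean over probesets, and leaving out arrays. Leaving out the 5 arrays that stand apart (first component score above 0.4 in size), and the alternatives for overlap and spread, were chosen after seeing the data.

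The design text gives 19 animals with an array in every region, whereas the titles hold 20 numbers with a different number missing in each region. Title numbers were therefore not taken as an established pairing.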

Additional observations from a re-analysis of the deposited data

How the results depend on the processing

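The calls depended mainly on the scale and on the minimum difference. With a minimum difference of 0, 17 genes were higher and 33 lower in NAc than in PFC (background 41.5% and 31.7% of all genes), 21 and 31 in VMB than in PFC (40% and 34.4%), and 30 and 27 in NAc than in VMB (39.3% and 35.6%). With a minimum difference of 1 the counts were 0 and 1, 1 and 2, and 1 and 1. On the deposited values as they are, 29 were higher and 1 lower in NAc than in PFC (background 60.1% and 1.36%), 3 and 3 in VMB against PFC (15.1% and 7.43%), and 33 and 0 in NAc against VMB (41.7% and 2.81%), as that scale holds the offset between regions. On it, arrays did not overlap for 30 genes with NAc above and 1 with NAc below PFC (64.7% and 1.26% of all genes), and for 30 above and 1 below VMB (43.8% and 2.80%). The sign turned on that scale for 32, 4 and 25 of the 65 genes (NAc minus PFC, VMB minus PFC, NAc minus VMB); among the genes named by rule, those also past the threshold on either scale were Ube2s (0.59), Uchl1 (0.60) and Usp18 (0.71) for NAc minus PFC, and Ube2d3 (0.066), Ube2g1 (0.61) and Ube2s (0.60) for NAc minus VMB. With the mean over probesets of a gene, the counts were 3 and 7, 2 and 7, and 5 and 5, and 10 calls were lost (Otub1, Usp29 and Usp43 for NAc minus PFC, Ube2b and Ube2w for VMB minus PFC, and Otub1, Otub2, Ube2d3, Usp1 and Usp12 for NAc minus VMB), while the NAc minus VMB difference of Usp12 turned to -0.081. With the mouse number as a replicate block (consensus correlation 0.0546), the counts stayed at 4 and 7, 2 and 7, and 8 and 7, and no call changed. Deviations of same-numbered arrays from their region means correlated at 0.056 (NAc and PFC), 0.071 (NAc and VMB) and 0.013 (PFC and VMB) on average, and 3, 10 and 5 of 18 pairs were over 0.1. Arrays of different numbers gave -0.0034, -0.00088 and -0.0021 in the same order. A one-sided permutation test of the pairing gave p = 0.040, 0.145 and 0.349, which does not settle it. Without the 5 arrays that stand apart the counts of called genes were 5 and 6, 2 and 7, and 8 and 7, with Otub1 (NAc minus PFC) the call that was lost at a difference of -0.82 against -0.85. Under all alternatives for the same mouse in 2 regions, 0 correlations passed (smallest adjusted p from 0.806 to 0.949). Levels of Ube2c, Usp25 and Usp43 lie near or below the filter of 4.5 in at least 1 region. What lies behind these shifts was not tested beyond the construction of each alternative.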
